A study of Drosophila melanogaster with 5 samples.

Results

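UDP-glycosyltransferases are enzymes of the endoplasmic reticulum that join a sugar, in insects mostly glucose taken from UDP-glucose, to small fat-soluble molecules. The sugar makes the molecule more soluble in water, so that it can be held back, moved or excreted. In flies the family is known for handling plant compounds and insecticides in gut, fat body and Malpighian tubules, for the chemistry of cuticle and pigment, and for clearing odorants in the antenna. Its members are named by a number for the subfamily, a letter for the group within it and a last number for the gene.

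The genes described here are those whose probes carry a single gene symbol that starts with Ugt and a digit. Of 35 such genes in the RefSeq gene table of Drosophila melanogaster, 33 were named by 36 probes on the arrays, and 32 genes with 35 probes had a value, out of 10125 genes measured in all. Ugt35E2 was on the array but none of its spots was filled, and Ugt305A1 and Ugt35D1 were not analysed here. Of the 32 genes, 29 were measured by 1 probe and 3 by a pair of probes.

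The study compared whole adult females lacking the insulin-producing cells of the brain (IPCs), which release insulin-like peptides into the blood, with control females. In the first group InsP3-Gal4 drove UAS-RPR/HID, the cell death genes reaper and hid, and in the control the same driver line was crossed to UAS-LacZ. All flies of both groups were 14 days old and had been given yeast paste as food for 48 h. Total RNA of both groups was hybridised together on 5 two-colour spotted arrays from 2 biological repeats, with the IPC-deficient RNA in Cy5 on 2 arrays and in Cy3 on 3.

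The authors deposited 1 signed fold change per probe, the same on every array, which leaves neither arrays nor flies to take a spread from, and nothing below is a test. A fold is given as a log2 value with its sign kept. Which group is the numerator is not stated. A negative value is read as lower in IPC-deficient flies, which is likely because the design names those flies first and because tobi (target of brain insulin) stood at -4.10. If the sign were turned, every direction below would be the opposite. As error, the SD between probes that measure one gene was taken, which was 0.18 on the log2 scale for 647 genes with 1437 probes on all 5 arrays, and 0.56 for all 1167 genes with several probes. Each probe was spotted as a pair of copies on 5 arrays, so at most 10 spots could be filled, and the count of filled spots shows how well a probe was measured.

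As a family the genes stood close to 0. Their median log2 value was 0.01, against -0.01 for all 10125 genes, with 17 genes above 0 and 15 below. At 1.5-fold, 0 of the 32 genes lay on the positive side, where 2.25% of all genes lay, and 1 lay on the negative side, where 3.11% of all genes lay. That gene was Ugt35A1 at -0.70, a 1.62-fold difference. At 2-fold there were 0 on both sides, against 0.711% of all genes above and 1.45% below. Just short of 1.5-fold stood Ugt303B3 at 0.58 (1.49-fold) and Ugt49B2 at -0.55 (1.46-fold). These are values of RNA from whole animals, in which fewer cells of a type and less RNA per cell cannot be told apart.

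**Figure D1:**
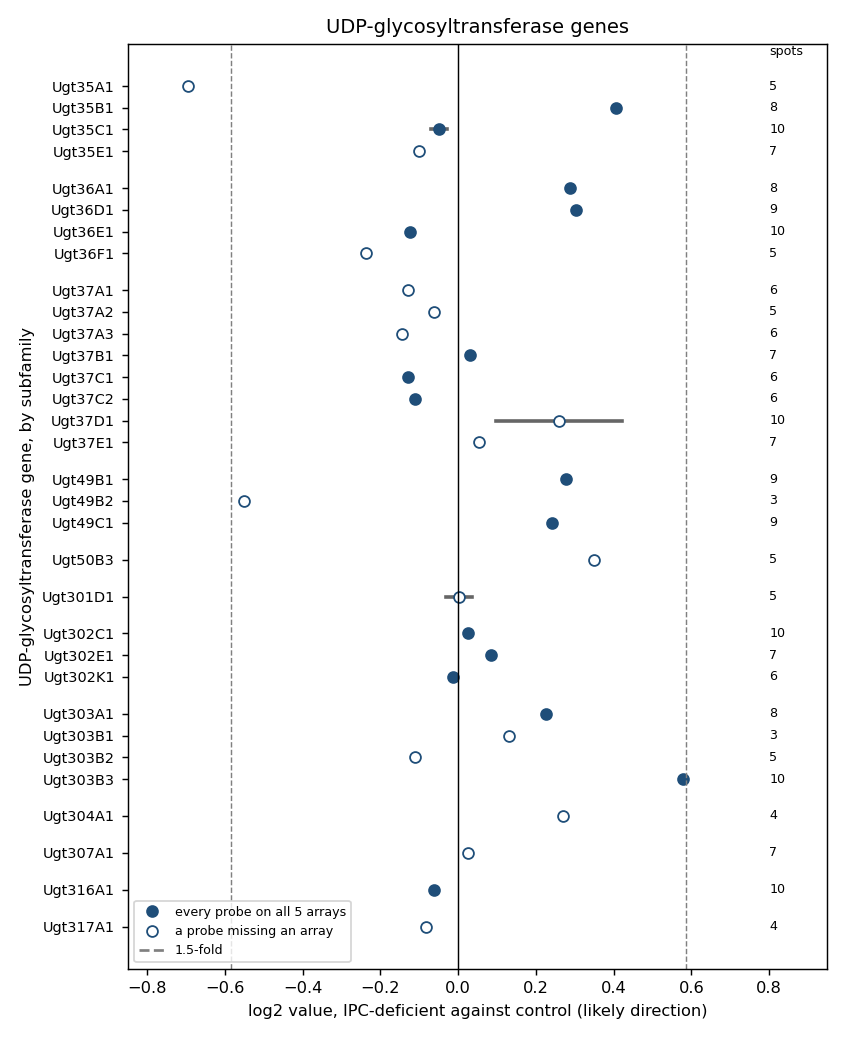
Log2 value of each of the 32 UDP-glycosyltransferase genes, grouped by subfamily. Circles are gene values, filled where every probe had a value on all 5 arrays, horizontal bars span the probes of the 3 genes with a pair of them, and the column on the right gives the filled spots of the best measured probe. Dashed lines mark 1.5-fold, and Ugt35A1 alone lies outside them.

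Around the median near 0, the central members were spread more widely than the central part of all genes, but the SD over all members was smaller. The interquartile range of the family ran from -0.11 to 0.25, a width of 0.36, whereas that of all genes spanned 0.23. The SD between genes was 0.26 for the family and 0.36 for all genes. For genes with every probe on all 5 arrays the interquartile range was 0.33 wide for the family and 0.21 for all genes, and the SD was 0.21 and 0.24. For genes with a probe missing an array the family was the narrower on both measures, at 0.20 and 0.28 for the range and 0.27 and 0.51 for the SD. Past the SD between probes on all 5 arrays (0.18, the limit meant below), 10 members lay on the positive side (31.3%, against 15.4% of all genes) and 3 on the negative side (9.38%, against 16.8%). This limit was chosen after the values were seen, and 16 of the 32 genes, all 3 negative ones among them, had a probe missing an array. Past the SD of 0.56 over all probes lay Ugt303B3 and Ugt35A1 alone. The 10 positive genes were Ugt303B3, Ugt35B1, Ugt50B3, Ugt36D1, Ugt36A1, Ugt49B1, Ugt304A1, Ugt37D1, Ugt49C1 and Ugt303A1, from 0.58 down to 0.23. The 3 negative genes were Ugt35A1, Ugt49B2 and Ugt36F1. The next gene below the 10 was Ugt303B1 at 0.13.

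The Ugt35 subfamily held both a leading negative and a leading positive member. Ugt35A1 stood at -0.70 from 5 spots on 3 arrays, and Ugt35B1, which is known from the antenna, stood at 0.41 (1.32-fold) from 8 spots on all 5 arrays. Their values were 1.10 apart, and the genes are direct neighbours on chromosome arm 3R. Ugt35C1, formerly Ugt86Dd and known for its part in the resistance of larvae to nicotine, stood at -0.05. Its probes stood at -0.07 and -0.03, so it lay within the SD between probes at both. Ugt35E1 stood at -0.10 from 7 spots.

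The Ugt36 genes were divided evenly. Ugt36D1 stood at 0.30 from 9 spots, and Ugt36A1, also called Dorothy and known for its expression in the lymph gland and the pericardial cells, stood at 0.29 from 8 spots. Ugt36E1, known from olfactory neurons, stood at -0.12 from all 10 spots, and Ugt36F1 at -0.24 from 5. The first pair lay past the SD between probes on the positive side and only Ugt36F1 of the other pair did so on the negative side.

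Ugt37, the subfamily with the most measured genes, was the least spread of the subfamilies with 4 or more, with an SD of 0.14 between genes against 0.28 for Ugt36, 0.29 for Ugt303 and 0.45 for Ugt35. Its median was -0.09, and 7 of 8 genes lay within the SD between probes. The 3 Ugt37A genes were all slightly below 0, Ugt37A1 at -0.13, Ugt37A2 at -0.06 and Ugt37A3 at -0.14. The Ugt37C pair stood at -0.13 for Ugt37C1 and -0.11 for Ugt37C2, although these genes lie on different chromosome arms. Ugt37B1 stood at 0.03 and Ugt37E1 at 0.05. Ugt37D1 was the exception at 0.26, halfway between 0.42 (10 spots) and 0.10 (6 spots) at its probes. The gap of 0.32 between them was the widest of the 3 genes with a pair of probes.

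In the Ugt303 subfamily 3 of 4 genes were above 0. Ugt303B3 stood at 0.58 from all 10 spots, the highest value of the family, and only 102 of 4559 probes with 10 filled spots, or 2.24%, had a higher one. Ugt303A1 stood at 0.23 from 8 spots, Ugt303B1 at 0.13 from 3 spots and Ugt303B2 at -0.11 from 5 spots. The 3 Ugt303B genes lie side by side on arm 3R, and their values ran from above to below 0 in the order of the genes. By contrast, the 3 Ugt302 genes all lay near 0, with Ugt302E1 at 0.09, Ugt302C1 at 0.03 and Ugt302K1 at -0.01.

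Of the Ugt49 genes, the neighbours Ugt49B1 and Ugt49C1 stood at 0.28 and 0.24, each from 9 spots. Ugt49B2, which lies on another chromosome arm, stood at -0.55 from only 3 spots, 1 on array 1 and 2 on array 3. The 2 genes that share the name Ugt49B thus stood on opposite sides.

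Each of the remaining subfamilies had 1 measured gene. Ugt50B3, of a lineage that is conserved across insects, stood at 0.35 (1.27-fold) from 5 spots, and Ugt304A1 at 0.27 from 4 spots. The other 4 lay within the SD between probes. Ugt301D1 stood at 0.00 from probes at 0.04 and -0.03, Ugt307A1 at 0.02, Ugt316A1 at -0.06 from all 10 spots and Ugt317A1 at -0.08.

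Many of these genes lie next to each other in the genome, and in the order of RefSeq's Release 6 genes 23 of the 35 formed 6 clusters with at most 2 other protein-coding genes between members. The build behind the probes is not named, so the order of genes is given and no coordinates. The cluster with the most genes, 10 on arm 3R, begins with Ugt35C1, Ugt302K1, Ugt302E1, Ugt302C1 and Ugt35E1. All 5 of these stood between -0.10 and 0.09. After the unmeasured Ugt35E2 follow Ugt35B1 at 0.41, Ugt35A1 at -0.70, Ugt304A1 at 0.27 and Ugt303A1 at 0.23. The gene with the lowest value of the family thus lay between 2 of the 10 positive genes, and the differences to them were 1.10 and 0.97.

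**Figure D2:**
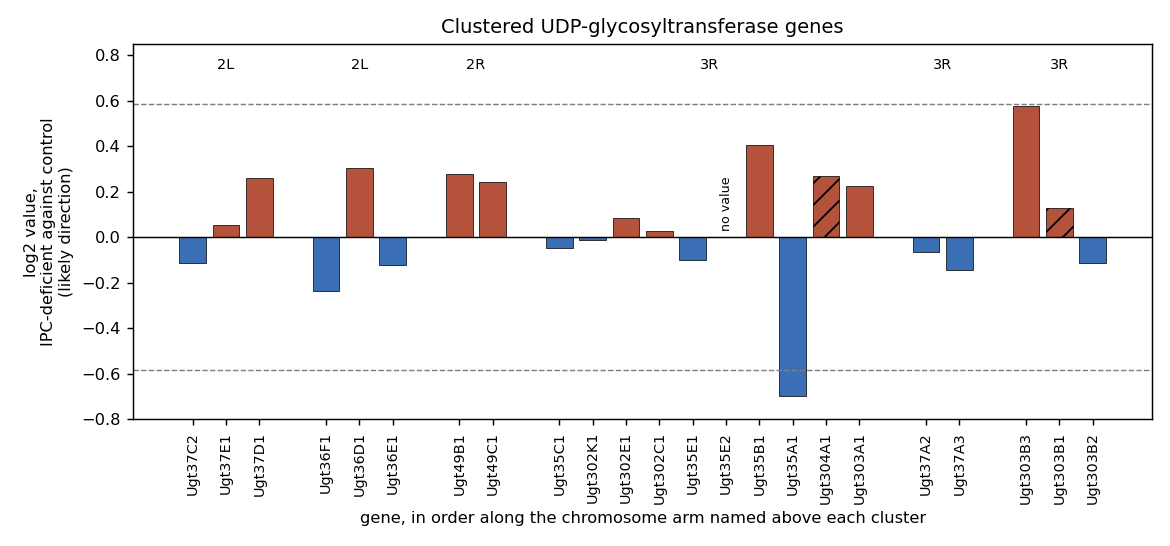
Log2 values of UDP-glycosyltransferase genes that lie in clusters, in their order along the chromosome arm written above each cluster. Hatched bars are genes with fewer than 5 filled spots, dashed lines mark 1.5-fold, and in the cluster of 10 genes Ugt35A1 points down between Ugt35B1 and Ugt304A1.

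On arm 2L the order Ugt36F1, Ugt36D1 and Ugt36E1 gave -0.24, 0.30 and -0.12, again with opposite signs on both sides of the middle gene. The order Ugt37C2, Ugt37E1 and Ugt37D1 gave -0.11, 0.05 and 0.26. Ugt37A2 and Ugt37A3 on arm 3R, and Ugt49B1 and Ugt49C1 on arm 2R, were pairs of similar value. Over the 13 pairs of measured family members with no other protein-coding gene between them, 6 had the same sign and 7 opposite signs. The median absolute difference was 0.21, with a range of 0.03 to 1.10, and over all 7340 pairs of measured neighbouring genes it was 0.18. Signs were not counted over the 7340 pairs, and values within the SD between probes have no sure sign. Related genes can cross-hybridise on spotted probes, and the probe sequences were not used here, so values of single members are uncertain.

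The family was filled less completely than the array as a whole. Its 35 probes had a median of 6 filled spots, against 9 for all probes with a gene symbol, and 51.4% of them had a value on all 5 arrays, against 67.7%. All 35 had a value on at least 1 array of each dye orientation, 6 had all 10 spots and 5 had only 3 or 4. Of the 36 probes, array 3 had 35 filled and array 1 had 30, while arrays 2, 4 and 5 had 28, 27 and 26. In percent, arrays 1 to 5 had 83.3, 77.8, 97.2, 75 and 72.2 of the family's probes filled. Over all probes with a gene symbol the percentages were 87.2, 74.5, 92.7, 77.7 and 74.1, also highest on array 3.

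**Figure D3:**
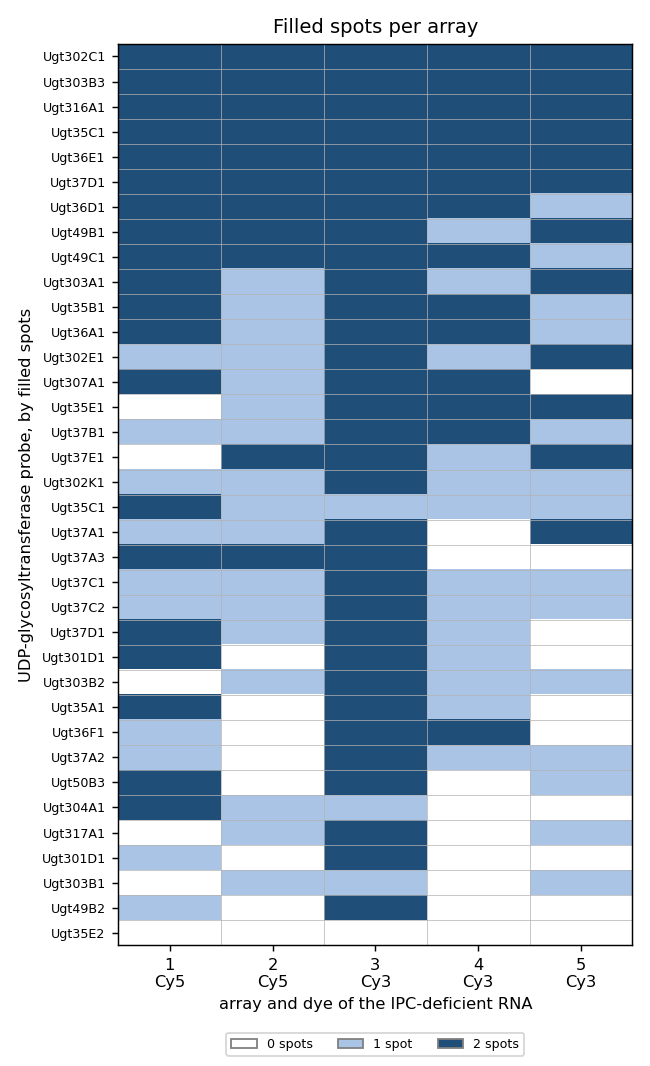
Filled spots of the 36 UDP-glycosyltransferase probes on each of the 5 arrays, with the dye that marked the IPC-deficient RNA below the array number. Dark cells are 2 filled spots, light cells 1 and white cells none, and array 3 has the fewest white cells.

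Values differed with the fill, in the family and over all genes. Of the 16 genes with every probe on all 5 arrays, 10 were above 0 (62.5%, against 49.8% of all such genes) and 6 below. Their median was 0.06 (against -0.0003). Of these, 7 lay past the SD between probes on the positive side (43.8%, against 14.9% of the 6564 such genes) and 0 on the negative side (against 12.7%), and 0 reached 1.5-fold on the positive or the negative side (against 1.95% and 0.731%). The 16 genes with a probe missing an array had a median of -0.07 (against -0.03 for all such genes). Of them 7 were above 0 (43.8%, against 45.0%) and 9 below. Among them 0 lay beyond 1.5-fold on the positive side (against 2.81% of such genes) and 1 on the negative side (against 7.5%). Past the SD between probes lay 3 on the positive side (against 16.3%) and 3 on the negative side (against 24.4%), the latter being Ugt35A1, Ugt49B2 and Ugt36F1.

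**Figure D4:**
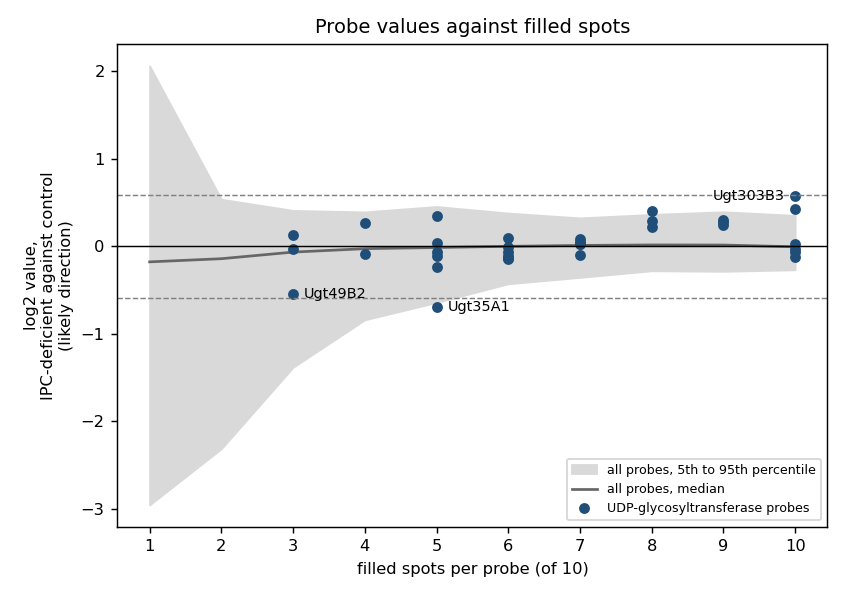
Log2 value of each UDP-glycosyltransferase probe against its number of filled spots, over the range from the 5th to the 95th percentile of all probes with a gene symbol (grey) and their median (line). Dashed lines mark 1.5-fold. The grey range widens towards few spots, mostly downwards, and Ugt49B2 lies inside it while Ugt303B3 lies above it.

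The same value weighs differently by fill. Among 736 probes with 5 filled spots, 5.57% lay beyond 1.5-fold on the negative side, and 31 of them, 4.21%, were lower than Ugt35A1. Among 605 probes with 3 filled spots, 12.9% lay beyond 1.5-fold on the negative side, and 13.2% were lower than Ugt49B2. Probes with 5 or 6 spots were also compared with a fully covered probe (on all 5 arrays) for the same gene, and the median distance was 0.17, with 11.1% of 199 probes more than 1.5-fold away. For probes with 3 or 4 spots the median distance was 0.32 and 31.2% of 199 were that far away, and for probes with 10 spots it was 0.09 and 1.47% of 340 were. Probes filled like that of Ugt35A1 thus missed a second probe of their gene by over 1.5-fold more often than probes filled like that of Ugt303B3.

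Other probes near these on the array stood close to 0 at the median. The 17 measured probes within 2 spots of Ugt35A1 had a median of -0.04. Of these 17, 2 lay beyond 1.5-fold on the negative side, where 3.11% of all genes lay, and the lowest stood at -0.62. The 23 around Ugt303B3 had a median of -0.04 with 1 beyond 1.5-fold on each side (against 2.25% of all genes above and 3.11% below). The 17 around Ugt49B2 had a median of -0.02 with none.

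The other large detoxification families were set beside this one as a description. The 79 cytochrome P450 genes, which oxidise compounds that glycosyltransferases can then take up, had 22 genes (27.8%) past the SD between probes above 0 and 14 (17.7%) below, against the 15.4% and 16.8% of all genes. Their interquartile range was 0.31 wide and their SD was 0.30. Of the 79, 4 lay beyond 1.5-fold above 0 and 3 below (against 2.25% and 3.11% of all genes). The 32 glutathione S-transferase genes had 8 genes (25%) past the limit above 0 and 1 (3.13%) below. They had 1 gene beyond 1.5-fold on each side (against the same 2.25% and 3.11%), an interquartile range 0.17 wide and an SD of 0.46. The lowest of them stood at -2.31 and had a probe missing an array. All 3 families thus had a larger share past the limit above 0 than all genes had. The order of the families by interquartile range was not their order by SD. With every probe on all 5 arrays, the SD was 0.17 for 23 glutathione S-transferases, 0.29 for 45 P450s and 0.21 for 16 glycosyltransferases. Their interquartile ranges were 0.19, 0.40 and 0.33 wide, so both measures then ranked the families alike. These differences were not tested.

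Genes on the route to nucleotide sugars, or that use them, stood on both sides of 0. Of 9 measured genes, 6 were below 0, the median was -0.04 with a range of -0.39 to 0.32, and none reached 1.5-fold. UGP, which makes UDP-glucose, stood at -0.19 from probes at -0.26 and -0.13, and Pgm1, which makes its glucose-1-phosphate substrate, at -0.14 from 4 spots. The hexokinase genes Hex-A and Hex-C stood at -0.08 and 0.20. sgl, which turns UDP-glucose into UDP-glucuronate, stood at -0.01 from all 10 spots. Galt and Galk, of galactose use, stood at -0.39 and 0.06, the latter from probes at -0.32 and 0.44 that disagree. The glucuronyltransferase genes GlcAT-S and GlcAT-P, which act on glycans, stood at -0.04 and 0.32. The nucleotide-sugar transporter genes frc and senju stood at 0.14 and 0.13, each from all 10 spots.

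Known regulators of detoxification genes had a median of 0.03 over 5 genes, none of them past the SD between probes. cnc, the fly counterpart of Nrf2, stood at 0.00 from 3 probes between -0.15 and 0.08, its inhibitor Keap1 at 0.09 and its partner maf-S at 0.03. The nuclear receptor genes Hr96, known for its role in the response to foreign compounds, and EcR, the ecdysone receptor, stood at -0.13 and 0.08. The sulfotransferase genes, whose products conjugate sulfate instead of sugar, stood at 0.11 for St1, -0.52 for St2, -0.04 for St3 and -0.27 for St4. Among 6 exporters of the ABC family, Mdr50 stood at -1.25 (2.37-fold) from 5 spots on some of the arrays and was the only one beyond 1.5-fold. On the negative side, 3.11% of all genes and 7.5% of genes with a probe missing an array lay beyond 1.5-fold. Of the 6 exporters, only MRP had every probe on all 5 arrays. Mdr49 stood at 0.22, MRP at 0.19, Mdr65 at -0.15, Mrp4 at -0.10 and Mrp5 at -0.36.

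Markers of tissues known to use the family, and of the reproductive tract, stood as follows, and their part in the values above was not tested. All 8 midgut markers, every one a gene of a digestive enzyme, were above 0. Of these, 6 lay beyond 1.5-fold (against 2.25% of all genes), and the median was 0.75. The 5 measured antenna markers had a median of 0.06, from Obp69a at -0.69 (1 spot) to Os-C at 0.16. The 6 Malpighian tubule markers had a median of 0.11, from ZnT35C at -0.84, where probes at -1.78 and 0.11 disagree, to Irk3 at 0.23. The 5 genes listed for the fat body had a median of -0.02, from Fbp2 at -0.55 to Fbp1 at 0.56, both from 3 spots. The 9 genes listed for the ovary, yolk protein genes among them, had a median of -0.03. They ran from Vm32E at -0.54 to Cp18 at 0.67, the only one beyond 1.5-fold (against 2.25% of all genes on the positive side). The 4 chorion genes among them were above 0, and the 5 yolk and vitelline membrane genes below. Male accessory gland genes, measured in animals labelled female, had a median of -0.87 over 5 genes, from Acp95EF at -1.32 (4 spots) to Acp26Aa at -0.42 (8 spots). Acp26Aa was the only one filled on all 5 arrays, and the others had 3 to 5 spots. Of the 5 accessory gland genes, 3 lay beyond 1.5-fold on the negative side (against 3.11% of all genes). Among all probes, those beyond 1.5-fold on the negative side made up 12.9% at 3 filled spots and 9.16% at 4. At 5 filled spots they made up 5.57%, and at 8 they made up 1.02%.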

How the data were processed

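The authors hybridised 5 two-colour spotted arrays, scanned each 3 times at different gains and used both spot copies and all hybridisations in the normalization, per the labels. How it was done was not given in the sources used here. In unit, the deposited score is a signed fold change: 0 values lay between -1 and 1, and 0 of 27376 features filled on several arrays differed between them by more than 1e-06. Depth has no counterpart here, and the number of arrays limits the precision. Because no array has a value of its own, the limma model named for separate array values was not run.

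Each fold was turned into log2 with its sign kept. Copies 2 blocks apart were joined into 16224 probes, of which 12537 had 1 gene symbol in the annotation of 2007, updated through a RefSeq gene table of Release 6. Several probes of a gene were joined by their median, with probes equal to 5 decimals counted once. The 5 columns of values carried no unmapped samples. The members, lists and limits were chosen with earlier results of these data known. By rule, the text names every measured family member, every measured gene of the linked lists, and the chromosomal neighbours of a member beyond 1.5-fold. Marker genes named beside a list median are its extremes, chosen after the values were seen. Genes beyond 1.5-fold were counted on each side beside the same share of all genes. The calculations were tested on simulated data. The alternatives tried were a 2-fold threshold, genes on all 5 arrays, probes with at least 5 spots, other ways of joining probes, centred columns and leaving out each array. Python 3.11.15, numpy 2.4.6, pandas 2.3.3 and matplotlib 3.10.9 were used.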

Additional observations from a re-analysis of the deposited data

How the results depend on the processing

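With a 2-fold threshold, and with genes whose every probe was on all 5 arrays, the number of family members beyond the threshold on the negative side was 0, since Ugt35A1 is at 1.62-fold and was filled on 3 arrays. With genes on all 5 arrays, fewer genes were left and the medians of subfamilies moved, Ugt303 to 0.40 over 2 genes, Ugt35 to 0.18 over 2 and Ugt36 to 0.29 over 3. The list of ABC exporters then held 1 gene, MRP, with a median of 0.19 and 0 genes beyond 1.5-fold. Over these alternatives, the other 243 recomputed values of the family, subfamilies and lists, and the 300 recomputed values of single members, stayed within the SD between probes or within 1.5 times the count, and no member changed sign under these alternatives. Most values of single members could not move, so this says little about their precision. The 29 members with 1 probe could change only by centring, and the mean of a pair of probes equals its median. Leaving out an array only removes probes filled on that array alone, because the deposited value combines all arrays, so it does not measure how much 1 array decides. No paired analysis was possible because the deposited values are 1 combined fold per probe. Signal over background was not analysed here, so filled spots are the only guide to how well a probe was measured, and differences under about 0.18 for probes on all 5 arrays, or under 0.56 over all probes, cannot be told from differences between probes. Of the 32 members, 16 had a probe missing an array.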
